A study of Mus musculus with 15 samples.

Results

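The effect of losing the paternal *Snord116* cluster was examined in cortex taken in the dark phase, at Zt +16, which is 16 h after lights on. The comparison set 2 *Snord116del* mice against 2 WT littermates, 4 of the 15 samples in the series and 4 of its 9 RNA-seq samples. All 4 were adult males on a C57BL/6J background that gave cortical RNA. The *Snord116del* mice (*Snord116del* +/-) had inherited the deletion from the father, so that every cell of the animal carried it, and the maternal copy, which is silent in neurons, was intact. The WT littermates carried no deletion. The deposited table gives 1 FPKM (fragments scaled to transcript length and library size) per group and gene. It covers 23235 genes, and the members are all of its rows for this pair of groups. Because 1 value stands for 2 pooled mice, the spread between mice cannot be seen, no difference below was tested, and no error can be put on a value. The table holds no read counts, and counting error was not computed.

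The imprinted Prader-Willi domain on mouse chromosome 7 is expressed from the paternal chromosome, and its long transcript is processed into *Snord116* snoRNAs and a spliced host RNA, *116HG*, that stays near its own gene in neuronal nuclei. Loss of this region is tied to Prader-Willi syndrome, with hyperphagia, disturbed sleep and altered metabolism. The mouse is nocturnal, so that Zt +16 falls in its active phase. The comparison addresses which cortical transcripts differ in the active phase when the paternal cluster is missing.

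The labels could not be checked against the targeted gene, because *Snord116* was listed at 0 FPKM in both groups, as was its neighbour *Snord64*. *Ipw*, a spliced RNA without a reading frame from the same paternal unit, was at 3.17 FPKM in WT cortex and 1.82 in *Snord116del*, a ratio of 0.574 while most genes of the table had a ratio above 1. *Snurf*, the upstream reading frame of the bicistronic *Snurf*-*Snrpn* transcript, was at 9.68 FPKM in WT cortex and 0.255 in *Snord116del*. *Snrpn*, which encodes a splicing protein from the same transcript, was at 90.0 in WT and 149 in *Snord116del*. The 2 genes overlap, so reads can be split between them in more than 1 way, and their sum was 99.7 in WT and 149.6 in *Snord116del*, a ratio of 1.5. *Ndn*, a paternally expressed MAGE family gene at the other end of the domain, was at 19.3 and 48.6, a ratio of 2.51. The maternally expressed ubiquitin ligase gene *Ube3a* was low in both groups, at 0.582 and 0.761. *Mkrn3* (0.231 and 0.243) and *Magel2* (0.273 and 0.251) were also low, as were *Peg12* (0.199 and 0.250), *Atp10a* (0.310 and 0.519), *Oca2* (0.0678 and 0.0705) and *Gabrg3* (0.0731 and 0.330). The GABA receptor subunit gene *Gabra5* (5.58 and 7.23) and the ubiquitin ligase gene *Herc2* (3.8 and 4.36) lay outside the deleted cluster. So did the genes at the edge of the domain, *Nipa1* (2.01 and 2.70), *Nipa2* (3.04 and 4.00), *Cyfip1* (1.74 and 2.28) and *Tubgcp5* (1.57 and 2.34). Of the 13 genes of the domain that were high enough to be compared, *Ndn* and *Snrpn* (15.4%) were at least 1.5-fold higher on the FPKM + 1 scale. *Snurf* was lower, and 10 were neither, with a median log2 change of 0.31. Of all genes compared 19.0% were higher and 0.204% lower, with a median of 0.35, so the share of higher genes in the domain was near that of the table.

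Cortical identity was visible in both groups. *Slc17a7*, the vesicular glutamate transporter of cortical excitatory neurons, was at 60.3 FPKM in WT cortex and 120.3 in *Snord116del*, and *Nrgn*, a postsynaptic protein gene of the same neurons, at 787 and 1530. *Ttr*, the defining transcript of choroid plexus, was at 24.9 and 29.6, and the other choroid plexus markers were below 1 FPKM in both groups.

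Most genes had a higher FPKM in *Snord116del* than in WT. The group total was 216422 FPKM for WT and 342188 for *Snord116del*, a ratio of 1.58. The 10297 of 23235 genes whose mean over the 4 RNA-seq groups of the series reached 1 FPKM were compared. Of the 10268 of them above 0 in both groups, 9956 (97.0%) had a ratio above 1 and 312 below. The median ratio was 1.4, the quartiles were 1.26 and 1.57, and 5% of genes lay below 1.05 and 5% above 1.91.

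A fold rule was used to count genes: FPKM + 1 had to differ at least 1.5-fold between the groups, with at least 1 FPKM in the higher group. As deposited, 1959 genes (19.0% of those compared) were higher in *Snord116del* and 21 (0.204%) were lower, 19.2% in either direction, so that 98.9% of the genes past the rule were higher. The median change on the log2(FPKM + 1) scale, on which the change of low genes is understated, was 0.35, with quartiles of 0.20 and 0.53. This split depended on how the groups were scaled. With both groups brought to the same median FPKM, which moves the log2 ratio of each gene by −0.47 and its log2(FPKM + 1) change by less, 120 genes were higher (1.17%) and 51 lower (0.495%). With both brought to the same total, a shift of −0.66 in the log2 ratio, 34 were higher (0.33%) and 121 lower (1.18%). The share of higher genes among those past the rule was 98.9%, 70.2% and 21.9% on these 3 scales, and the median change was 0.35, 0.01 and −0.12. FPKM is a relative unit, and the table holds no spiked standard that would choose between the scales.

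**Figure D1:**
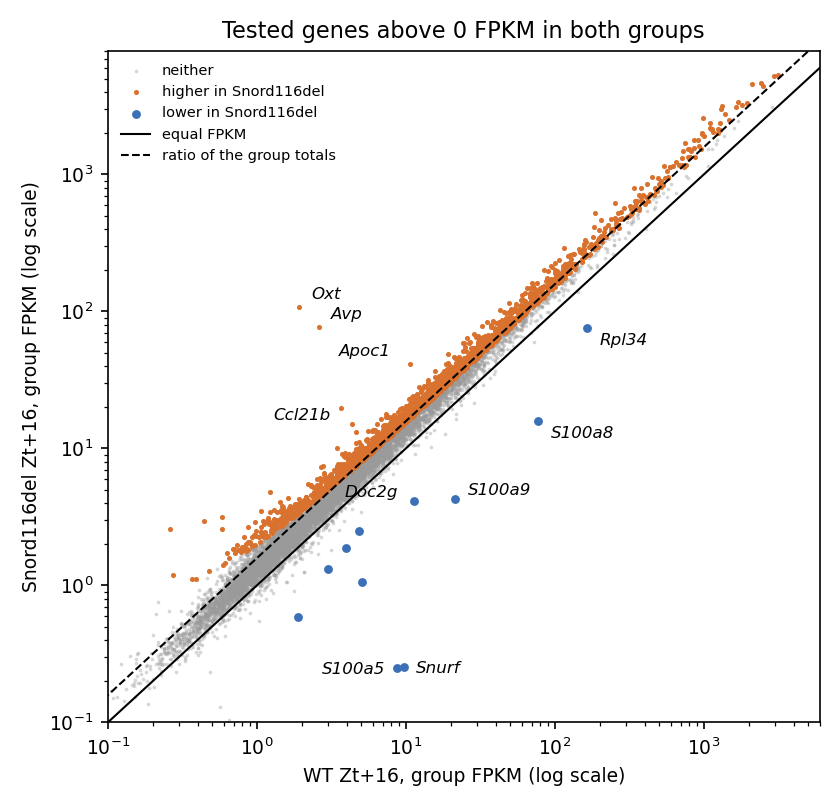
FPKM of each gene compared in WT (horizontal) and *Snord116del* (vertical) at Zt +16, both axes logarithmic, for genes above 0 in both groups; orange and blue points are genes higher and lower by the fold rule as deposited, and 5 genes, 1 of them past the rule, lie outside the axes. Most of the cloud lies between the line of equal FPKM and the dashed line of the ratio of the totals (1.58). The median ratio was 1.4, and the ratio was higher at high FPKM. *Oxt* and *Avp* lie far above the cloud and *S100a8*, *S100a9*, *S100a5*, *Snurf*, *Doc2g* and *Rpl34* below it.

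**Figure D2:**
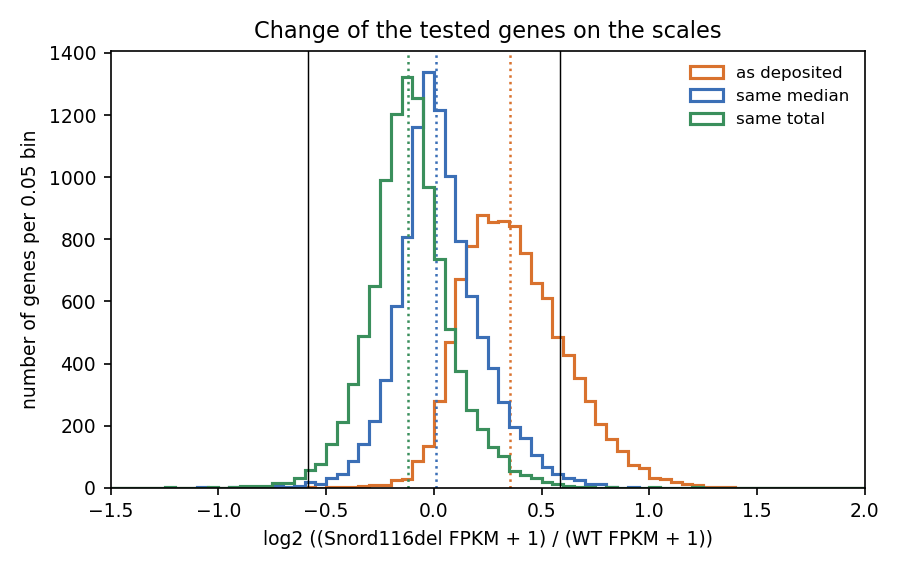
Number of genes by log2 change in FPKM + 1, *Snord116del* over WT, as deposited, with both groups at the same median and at the same total; dotted lines are the medians (0.35, 0.01 and −0.12) and black lines the 1.5-fold limits. As deposited the upper limit cuts through the flank of the distribution, and on the other scales nearly all genes lie inside both limits; 15 to 17 genes lie below the axis and 9 to 11 above it on the 3 scales.

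A total of 55 genes passed the fold rule in the same direction on all 3 scales, 34 higher and 21 lower. Leaving out microRNA, snoRNA and other short RNA genes, which are described separately below, 23 were higher and 13 lower. These are the genes whose place past the rule does not hang on the choice among the 3 scales. Both rescalings move changes downward only, so the 21 genes lower as deposited had to stay lower. The 34 higher genes are those that passed at the same total.

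The widest gap in the table among genes at 1 FPKM or more in both groups was that of the neurohypophysial peptide genes. *Oxt* encodes oxytocin with its carrier neurophysin, and *Avp* encodes vasopressin with its carrier. Both peptides are made mainly by magnocellular neurons of the hypothalamus and act on water balance, social behaviour and feeding. *Oxt* was at 1.91 FPKM in WT cortex and 107 in *Snord116del*, a ratio of 56.1. *Avp* was at 2.60 in WT and 76.6 in *Snord116del*, a ratio of 29.4. On the log2(FPKM + 1) scale the changes were 5.22 and 4.43 as deposited, 4.83 and 4.03 at the same median, and 4.66 and 3.86 at the same total. At Zt +6, in other mice, *Oxt* was at 1.72 in WT and 1.18 in *Snord116del*, and *Avp* at 4.90 and 1.56. The *Snord116del* group at Zt +16 was thus the only one of the 4 groups above 5 FPKM for either gene. Whether 1 or both of its mice carried the high value cannot be told from a group value.

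The 2 genes are neighbours on chromosome 2 that are transcribed towards each other. In NCBIM37, the assembly of mm9, *Oxt* spans 130401909 to 130402790 on the plus strand and *Avp* 130406356 to 130408290 on the minus strand, with 3565 bases between them. The 250 bases before each start site, from RefSeq on GRCm38.p6, are shown because these genes had the widest gap between the groups. Capitals mark GGTCA on either strand (TGACC on the other), the core of the half-site bound by nuclear receptors, and CACGTG, the E-box bound by the clock proteins CLOCK and BMAL1, which reads alike on both strands.
*Oxt*, chr2:130575919-130576168, plus strand: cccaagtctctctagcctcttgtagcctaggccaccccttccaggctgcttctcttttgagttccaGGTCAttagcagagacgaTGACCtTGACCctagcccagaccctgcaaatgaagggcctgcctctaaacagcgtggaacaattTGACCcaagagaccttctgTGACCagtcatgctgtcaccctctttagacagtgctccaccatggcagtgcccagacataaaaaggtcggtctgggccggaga
*Avp*, chr2:130582589-130582838, minus strand: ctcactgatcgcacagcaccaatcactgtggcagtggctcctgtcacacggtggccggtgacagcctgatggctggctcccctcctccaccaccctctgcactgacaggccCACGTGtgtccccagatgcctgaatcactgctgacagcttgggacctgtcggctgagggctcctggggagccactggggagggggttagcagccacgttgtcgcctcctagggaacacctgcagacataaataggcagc
The *Oxt* window held 5 matches to GGTCA, between 184 and 79 bases before the start, and none to CACGTG. The *Avp* window held 1 CACGTG, 139 to 134 bases before the start, and no GGTCA. Of 32851 such windows in the reference, 35.2% held GGTCA and 6.02% held CACGTG. A match of letters describes the window and says nothing of binding in these samples.

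The other hypothalamic peptide genes are given beside this pair, from a list of 15 drawn up after the values had been seen. Since it was built around *Oxt* and *Avp*, no count over it is given. *Gal*, which encodes galanin, was at 0.966 FPKM in WT cortex and 2.90 in *Snord116del*. *Pomc*, the precursor of melanocortins, was at 2.31 and 5.34, and *Cartpt*, the precursor of the CART peptide, at 31.3 and 54.4. *Scg2*, a secretory granule protein gene, was at 11.1 and 10.6. At the same median *Oxt*, *Avp* and *Gal* passed the rule. *Hcrt* (0.641 and 0.980), *Pmch* (0.0344 and 0.0703) and *Agrp* (0.0444 and listed at 0), markers of other hypothalamic neurons, were near 0. *Sim1* (0.0471 and 0.0607) and *Otp* (0.104 and 0.236), transcription factor genes of the magnocellular lineage, were also near 0 in both groups. The sum of the 15 genes was 53.6 for WT and 262 for *Snord116del*. Without *Oxt* and *Avp* the sum of the other 13 was 49.0 and 78.7, with *Cartpt* as its largest part. Its ratio of 1.60 was close to that of the group totals, 1.58. The part of a difference in dissected tissue in these values was not tested, and in bulk RNA fewer or more cells of a type cannot be told apart from less or more RNA per cell.

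Among the other genes higher on all 3 scales were lipid carriers and chemokines. *Apoc1*, an apolipoprotein gene, was at 10.7 FPKM in WT cortex and 41.1 in *Snord116del*, a ratio of 3.86. *Apoc3*, a regulator of triglyceride clearance, was at 1.23 and 4.79. *Ccl21b*, a chemokine gene that guides lymphocytes, was at 4.37 and 15.1, and *Ccl27b*, another chemokine gene, at 3.43 and 10.1. *Ccl21b* and *Ccl27b* belong to families of near-identical copies on chromosome 4, among which counting can split reads, so their own values are uncertain. *Ccl27a* was at 518 and 894, *Ccl21a* at 0.996 and 2.29 and *Ccl21c* at 0.608 and 0.849. *Apoe*, the main lipid carrier of brain, was at 1395 and 2745, *Clu*, which encodes clusterin, at 100.1 and 189.5 and *Apod* at 41.2 and 64.6. *Ccl27a*, *Apoe*, *Clu* and *Apod* passed the rule as deposited but neither at the same median nor at the same total. This group was also drawn up after the values were seen.

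*Nrtn*, which encodes the neurotrophic factor neurturin, was at 4.67 FPKM in WT cortex and 13.1 in *Snord116del*. *Rps29*, a ribosomal protein gene, was at 116 and 291. *Vstm2l*, which encodes a secreted immunoglobulin domain protein, was at 25.7 and 64.2, and *Gp1bb*, a platelet glycoprotein gene, at 253 and 620. With *Ndn*, these genes differed by ratios between 2.45 and 2.81, against a median of 1.4. *Nrtn*, *Vstm2l* and *Gp1bb* have GC-rich transcripts of 72.8%, 69.2% and 62.2% GC.

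**Figure D3:**
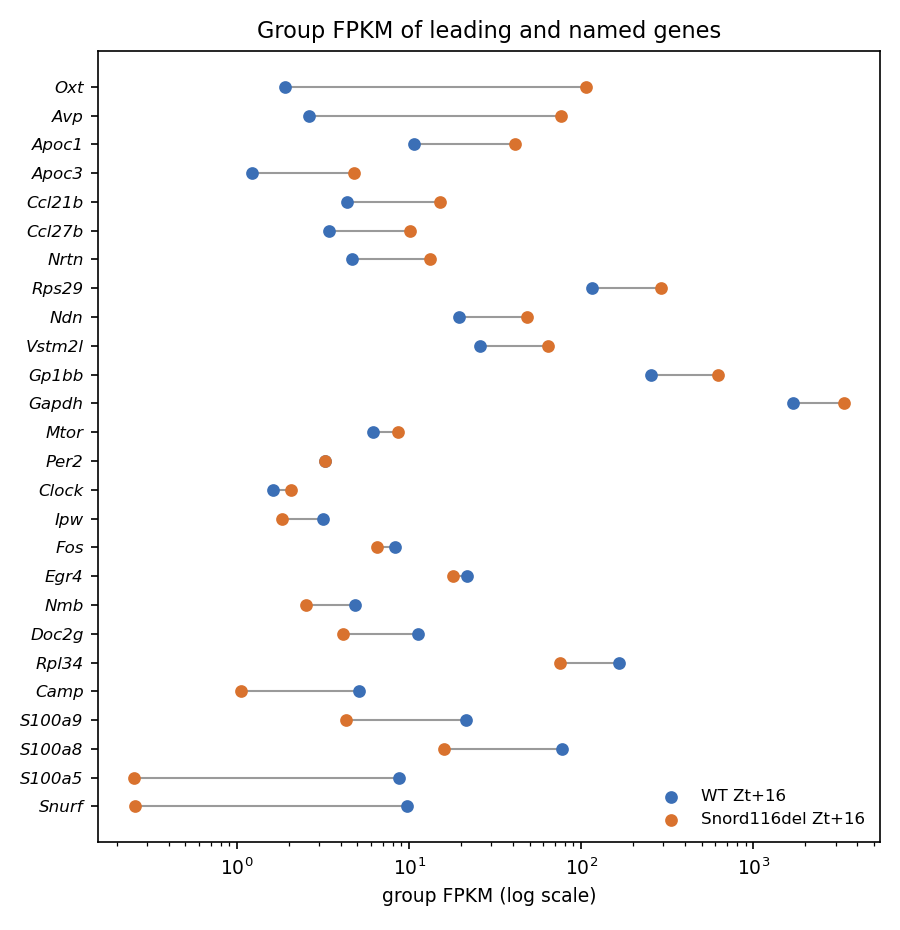
Group FPKM of 26 named genes in WT (blue) and *Snord116del* (orange) at Zt +16 on a logarithmic axis, 1 value per group. *Oxt* and *Avp* have the longest bars to the right and *S100a5* and *Snurf* the longest to the left, while *Per2* is at 3.25 in both groups.

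Genes lower in *Snord116del* were few. *S100a8* and *S100a9*, which encode the subunits of calprotectin, a protein of neutrophils, lie 22597 bases apart on chromosome 3 (NCBIM37 90472993 to 90473956 and 90496554 to 90499643). *S100a8* was at 77.3 FPKM in WT cortex and 15.9 in *Snord116del*, a ratio of 0.205, and *S100a9* at 21.5 and 4.27, a ratio of 0.199. *Camp*, the cathelicidin gene of neutrophil granules, was at 5.09 and 1.06. At the same median the log2 changes were −2.66, −2.50 and −1.88. Other neutrophil genes, chosen after these values were seen, were below the filter. *Lcn2*, another granule protein gene, was at 1.86 and 0.685 and *Retnlg* at 0.930 and 0.241. *Elane* (0.106 and 0.142) and *Mpo* (0.171 and 0.0994), defining genes of immature neutrophils, were near 0. The haemoglobin genes *Hba-a2* (653 and 732) and *Hbb-b2* (409 and 401) had ratios below the median of the table. Of 6 blood genes compared none was higher and 2, *S100a8* and *S100a9*, were lower as deposited, and 3 were lower at the same total. Of all genes compared 19.0% were higher and 0.204% lower as deposited, and 1.18% were lower at the same total. The 8 blood genes listed, these 2 included, summed to 1181 FPKM in WT and 1180 in *Snord116del*, a ratio of 0.999. They made up 0.545% of the WT total and 0.345% of the *Snord116del* total, which was 1.58 times the WT total. The part of blood left in the tissue in the difference of the neutrophil genes was not tested. At Zt +6 *S100a8* was at 4.03 in WT and 1.07 in *Snord116del*, so that WT at Zt +16 had the highest value of the 4 groups.

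A second set of low genes is known from the olfactory bulb. *S100a5*, a calcium-binding protein gene of olfactory neurons, was at 8.77 FPKM in WT cortex and 0.251 in *Snord116del*. *Doc2g*, a marker of mitral and tufted cells, was at 11.3 and 4.12. *Cdhr1*, a cadherin gene of the same cells, was at 1.88 and 0.590, and *Nmb*, which encodes neuromedin B, at 4.85 and 2.51. *Fabp7*, a fatty acid binding protein gene, was at 18.3 and 12.7 and lower at the same median. The sum of 14 olfactory bulb genes, a list drawn up after the values were seen, was 85.9 for WT and 57.1 for *Snord116del*. *Eomes* (0.834 and 0.278) and *Tbx21* (0.662 and 0.243), transcription factor genes of projection neurons of the bulb, went the same way below the filter, *Th*, which olfactory interneurons share with dopamine neurons, was at 5.28 and 4.57, and *Omp*, the marker of olfactory sensory neurons, was at 0.430 and 0.434. The same sets at Zt +6 were 4.42 and 1.07 for *S100a5* and 8.34 and 2.21 for *Doc2g*. The part of the dissection border in these values was not tested.

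*Rpl34*, a ribosomal protein gene, was the only gene above 100 FPKM in either group, short RNA genes aside, that was lower as deposited, at 165 in WT and 75.2 in *Snord116del*. Its processed copy *Rpl34-ps1* was at 338 and 792. The copies share reads, and their sum was 503 and 867, a ratio of 1.72, so the split between them is uncertain. *Speer7-ps1* (3.95 and 1.86) and *Speer8-ps1* (3.01 and 1.32) belong to a multicopy family and are uncertain in the same way. *Akr1b3*, an aldose reductase gene with near-identical copies, was at 2.52 and 0.000198, and *Gm12238* at 14.4 and listed at 0. *Akr1b3* was at 0.536 and 5.12 at Zt +6.

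Apart from short RNA genes, the largest differences in FPKM itself lay in abundant transcripts. The difference between the group totals was 125765 FPKM. Cytosolic ribosomal protein genes made up 21.0% of it, with a sum of 33173 in WT and 59637 in *Snord116del*, a ratio of 1.80. Nuclear genes of the respiratory chain and ATP synthase made up 14.8%, with sums of 24140 and 42717, a ratio of 1.77. *Rpl41* went from 3141 to 5315, *Cox6a1*, a cytochrome oxidase subunit gene, from 2969 to 5265, *Rpl35* from 2094 to 4560 and *Atp5k*, an ATP synthase subunit gene, from 1325 to 3135. *Gapdh*, a glycolytic enzyme gene often used as a reference, was at 1694 and 3368.

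Of 78 ribosomal protein genes compared, 53 were higher and 1 lower as deposited (67.9% higher, against 19.0% of all genes), and of 77 respiratory chain genes 61 were higher and none lower. Their median changes were 0.77 and 0.69 as deposited, against 0.35 over all genes. At the same median the medians were 0.30 and 0.23 against 0.01, with 6 and 10 genes higher, and at the same total 0.11 and 0.05 against −0.12, with 1 gene higher in each. At the last scale *Rps29* was the ribosomal gene left. Glycolytic enzymes (10 of 16 higher, median 0.63) and proteasome subunits (14 of 31 higher, median 0.57) were placed between these and the table as a whole, and no member of either passed the rule at the same median or the same total. At Zt +6, in other mice, the ribosomal sum was 21035 in WT and 13018 in *Snord116del* and the respiratory sum 15071 and 7016, the opposite order in each case. The difference between the times was not tested.

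The ratio followed properties of the transcripts. In the tenth of genes with the shortest transcripts, with a median of 875 bases, the median ratio was 1.57 and 48.5% were higher by the fold rule, and in the tenth with the longest, with a median of 7925 bases, it was 1.30 and 2.66%. The tenth with the lowest GC content had a median ratio of 1.37 and 4.42% higher, and the tenth with the highest 1.59 and 44.0%. Genes with a mean of the 2 groups below 1 FPKM had a median ratio of 1.29, and genes above 100 FPKM 1.61, with 0.355% and 67.8% higher. The class below 1 FPKM met the filter only through the Zt +6 groups. It is thus a selected set, with a median transcript of 4395 bases, and does not stand for all low genes. From 2 FPKM up, where the Zt +16 values alone meet the filter, the median ratio went from 1.40 (2 to 5 FPKM) to 1.61. The fold rule itself, through the added 1 FPKM, passes fewer low genes, but the ratio does not carry that term. Across genes, which are not independent replicates and share the same 2 groups, Spearman's rho of the log2 ratio was 0.29 with level over 10256 genes, and −0.29 with transcript length and 0.24 with GC content over 9939. Short transcripts with high GC content had a median ratio of 1.61, and long ones with middle GC content 1.31. The part of library preparation in these gradients was not tested.

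**Figure D4:**
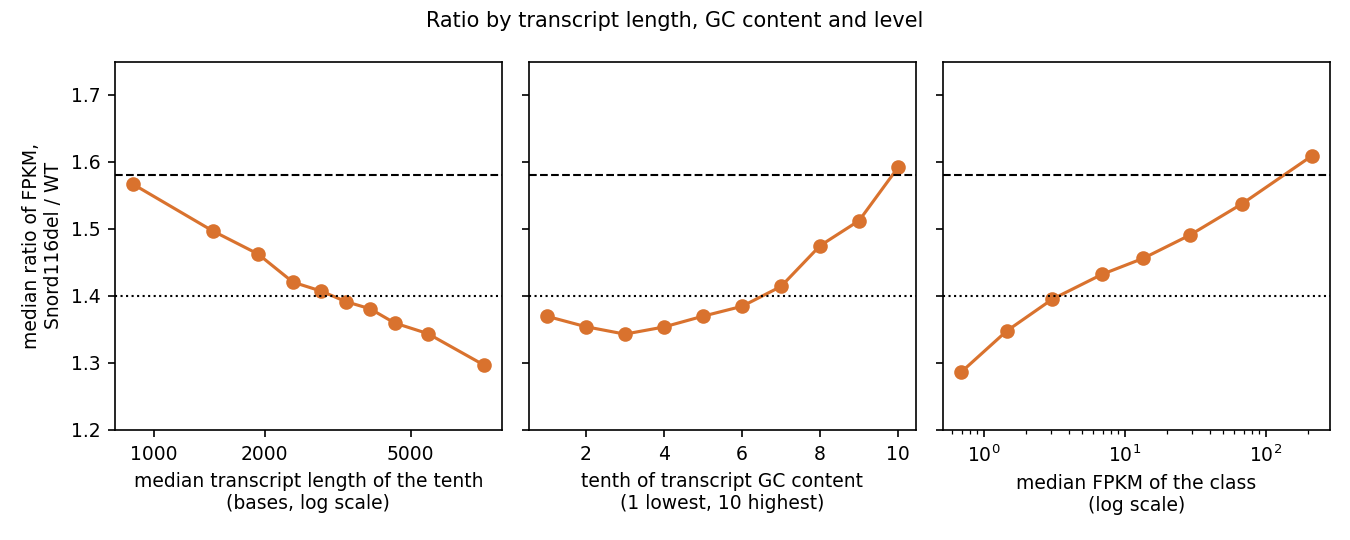
Median ratio of FPKM, *Snord116del* over WT, in 10 equal classes of transcript length (left), 10 of GC content (middle) and classes of mean FPKM of both groups (right); the dotted line is the median over all genes (1.4) and the dashed line the ratio of the totals (1.58). The ratio goes from 1.57 to 1.30 with length, from 1.37 to 1.59 with GC content and from 1.29 to 1.61 with level; the vertical axis does not start at 0.

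A trend with linear and squared terms in level, transcript length and GC content held 37.5% of the variance of the change over 9942 genes. This change is on the log2(FPKM + 1) scale, which understates low genes, and level comes from the same group values. Part of the 37.5% can thus come from the added 1 FPKM. With the trend removed, 21 genes were higher (0.211%) and 55 lower (0.553%), 0.764% in either direction. The median changes of ribosomal protein and respiratory chain genes were then 0.10 and 0.05. Among those that passed were *Oxt* (4.46), *Avp* (3.59), *Apoc1* (1.21), *Ccl21b* (1.05), *Apoc3* (0.95), *Ndn* (0.68) and *Rps29* (0.61) on the higher side, and *S100a5* (−3.40), *S100a8* (−2.85), *S100a9* (−2.62), *Camp* (−1.97), *Doc2g* (−1.77) and *Cdhr1* (−1.07) on the lower. *Nrtn* (0.43), *Vstm2l* (0.39) and *Gp1bb* (0.51) did not pass. *Snurf* has no match in the annotation and could not be included.

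The median ratio of a chromosome lay between 1.36 and 1.46, and the share of higher genes between 10.7% on chromosome 12 and 30.1% of 771 genes on chromosome 7, which also had the highest median ratio. Chromosome 7 also had the shortest median transcript of the chromosomes compared, 2625 bases. Of genes within 2 kb of a *116HG* ChIRP peak seen in both WT brain replicates within 10 kb of each other, 15.1% of 1832 were higher, against 19.9% of 8305 other genes. Peak genes had longer transcripts, with a median of 3630 bases against 2976. Within 3 classes of transcript length the shares were 32.7% against 36.3% for short, 14.4% against 15.0% for middle and 5.88% against 6.48% for long transcripts. Genes near peaks of the control libraries were higher in 8.95% (WT with non-specific control oligos), 14.8% (*Snord116del* with *116HG* oligos) and 18.4% (*Snord116del* with non-specific control oligos) of cases.

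The circadian clock runs on CLOCK and BMAL1, which drive *Per* and *Cry* genes whose products block them in turn. Of 21 clock and clock output genes compared, 1 was higher as deposited (4.76%, against 19.0% of all genes) and none lower, and the median change was 0.23, against 0.35 over all genes (−0.03 against 0.01 at the same median). The gene that passed was *Tef*, a clock output factor, at 26.05 FPKM in WT cortex and 43.5 in *Snord116del*. *Per2* was at 3.25 in both groups, *Per1* at 4.03 and 4.27, *Cry1* at 3.01 and 4.03, *Cry2* at 9.03 and 12.9 and *Clock* at 1.62 and 2.05. *Bhlhe40*, a repressor of clock targets, was at 4.53 and 4.33. Of 29 promoter windows of 20 of these genes, 20.7% held CACGTG, the E-box shown above for *Avp*, against 6.02% of all windows. None of the clock genes passed the rule in either direction at the same median, and 1, *Bhlhe40*, was lower at the same total.

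Immediate early genes respond to neuronal firing within minutes. None of 20 was higher or lower as deposited, with a median change of 0.09 against 0.35. Of all genes compared 19.0% were higher and 0.204% lower, so that hardly any lower gene would be looked for among 20. *Fos*, the prototype of the class, was at 8.25 FPKM in WT cortex and 6.47 in *Snord116del*, and *Egr4*, a zinc finger factor gene, at 21.8 and 17.9. *Arc*, which encodes a synaptic plasticity protein, was at 14.4 and 14.8, *Egr1* at 36.3 and 38.1 and *Nr4a1* at 12.1 and 12.2. At the upper end of the list were *Nr4a2*, an orphan receptor gene, at 1.10 and 2.14 and *Jun*, an AP-1 factor gene, at 2.93 and 4.14. At the same median the list median was −0.24 and *Fos* and *Egr4* were lower, against 0.495% of all genes. At the same total the list median was −0.39 and 4 were lower, against 1.18% of all genes. Levels flat as deposited and low on the other scales are the same measurement, read against a table in which the typical ratio was 1.4.

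Genes of the mTOR pathway, which couples nutrients to protein synthesis, sat close to the table as a whole. *Mtor*, the kinase itself, was at 6.16 FPKM in WT cortex and 8.65 in *Snord116del*, a ratio of 1.4, equal to the median ratio. Of 28 genes compared, 5 were higher as deposited (17.9%, against 19.0% of all genes) and none at the same median, with median changes of 0.39 and 0.02. *Akt1*, the kinase upstream, was at 18.3 and 29.9, *Tsc2*, a brake on the pathway, at 8.78 and 13.8 and *Eif4ebp1*, a translation repressor it controls, at 1.7 and 3.17. *Rbbp5*, a subunit gene of H3K4 methyltransferases, was at 2.64 and 3.55, and of 16 subunit genes 1, *Cxxc1* (10.9 and 19.4), was higher, with a median of 0.21. The study followed several genes by qPCR. In the RNA-seq table these included *Arr3* (0.381 and 0.500), *Mertk* (0.270 and 0.457), *Crebbp* (2.19 and 2.60) and *Igf2r* (0.343 and 0.390), none past the rule. Of the 10 such genes compared, *Gapdh* alone was higher and none was lower, with a median of 0.21. *Gapdh* was the reference to which the study normalized its qPCR of diurnal genes.

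Vesicle release genes and glutamate and GABA receptors sat near the table as a whole, in which 19.0% were higher and the median was 0.35. Vesicle release genes had 6 of 29 higher and a median of 0.41, with *Syp*, which encodes synaptophysin, at 61.6 and 120.2, *Vamp2* at 70.5 and 122 and *Pclo*, a large active zone scaffold gene, at 2.42 and 2.85. Glutamate and GABA receptors had 4 of 29 higher and a median of 0.36, with *Gabrd* at 12.1 and 23.8 and *Grin3a* at 0.187 and 0.137. Of 4 serotonin receptor genes none passed, with a median of 0.18 below the lower quartile of the table, and *Htr2c*, whose transcript *Snord115* is thought to modify, was at 0.706 and 0.719. Cortical neuropeptides had 6 of 13 higher (46.2%) and a median of 0.56, above the upper quartile, with *Sst* at 571 and 1055, *Npy* at 229 and 426 and *Pdyn*, the precursor of dynorphins, at 1.35 and 1.07. Their transcripts were short, with a median of 1176 bases. With the trend on level, length and GC content removed, the median of the neuropeptides was −0.0057. No member of these 4 lists passed the rule at the same median.

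Markers of the cell types of cortex were set against the 19.0% of all genes that were higher and the median of 0.35. As deposited, cortical neurons had 3 of 15 higher (median 0.42), interneurons 3 of 11 (0.38), astrocytes 4 of 12 (0.37), oligodendrocytes 5 of 16 (0.48), endothelium 1 of 10 (0.21) and microglia 9 of 12 (0.64). The microglial members included *C1qb* (49.0 and 98.3), *Trem2* (10.5 and 20.7) and *Tyrobp* (70.2 and 129.6), a complement gene, a lipid receptor gene and its signalling adaptor, while *Cx3cr1* (3.58 and 5.11) and *P2ry12* (1.66 and 2.40), receptor genes that define resting microglia, did not pass. Within interneurons *Slc32a1*, the vesicular GABA transporter gene, was at 127 and 258, and *Gad1*, the enzyme gene of the same cells, at 10.1 and 10.4. Striatal markers, whose tissue lies under cortex, had 6 of 8 higher (median 0.70), with *Rgs9* at 8.11 and 16.3 and *Ppp1r1b* at 9.59 and 18.1. *Drd2*, at 1.12 and 1.56, did not pass. *Adora2a*, at 0.518 and 0.379, was below the filter and not among the 8. Hippocampal markers had 2 of 5 higher and a median of 0.56, with *Wfs1* at 15.6 and 30.1 and *Prox1*, the defining gene of the dentate gyrus, at 0.494 and 0.656. No marker of these 8 lists passed the rule in either direction at the same median. The share of cell types in the samples was not tested.

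**Figure D5:**
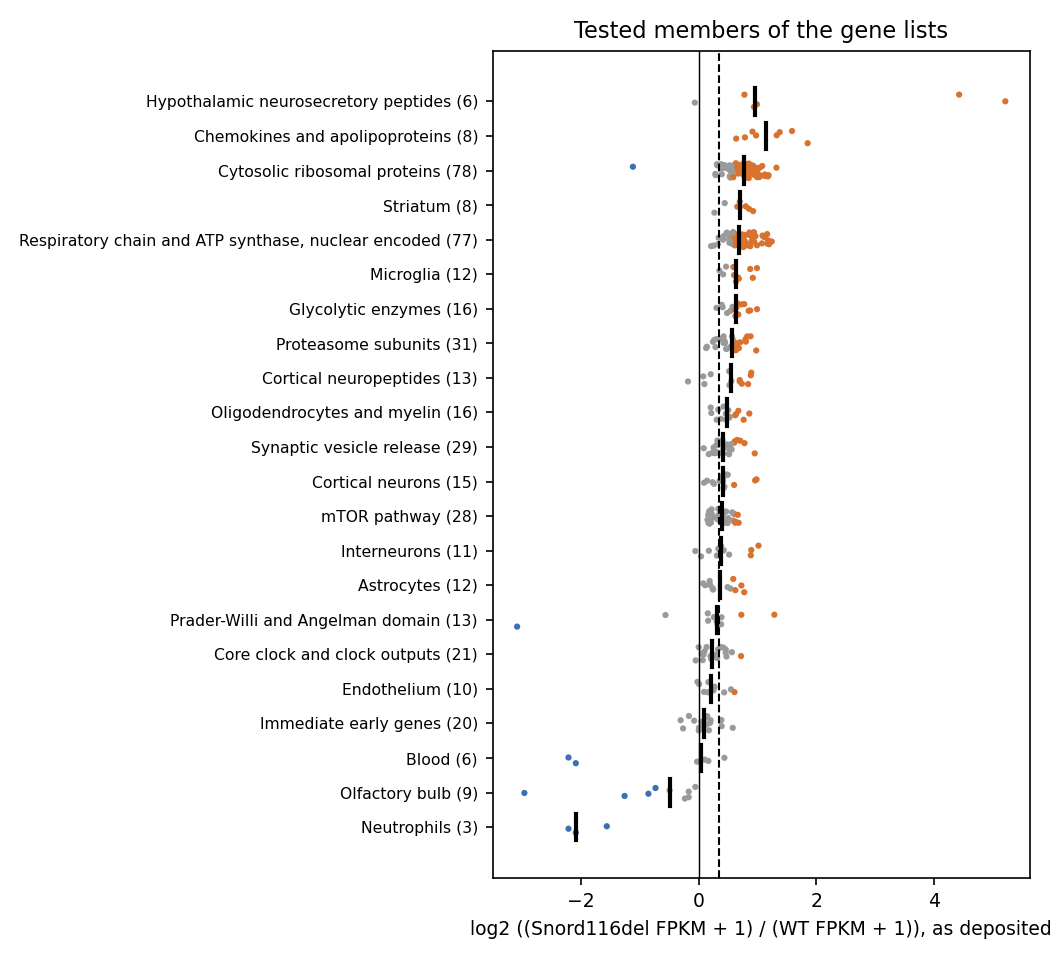
Log2 change of FPKM + 1, *Snord116del* over WT as deposited, of each compared member of 22 gene lists, with the number of members in brackets; orange and blue points passed the fold rule, black bars are list medians and the dashed line is the median over all genes (0.35). Most lists straddle the dashed line, ribosomal and respiratory genes lie to its right (medians 0.77 and 0.69), as do the hypothalamic and the chemokine and apolipoprotein lists, and olfactory bulb and neutrophil genes lie to its left. Those last 4 lists were drawn up after the values were seen.

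Short RNA genes gave the most extreme values and the least certain. Of 741 in the table, 37 were compared. Of these, 16 were listed at 0 in exactly 1 of the groups, 9 in both and 12 in neither. By the fold rule 15 were higher, 8 of them listed at 0 in WT, and 8 were lower, all listed at 0 in *Snord116del*. Of all genes compared 19.0% were higher and 0.204% lower. Some short RNA genes, such as *Mir744*, *Snora30* and *Scarna3a*, were above 0 in a single group. They met the filter on the mean through that group alone, which also placed them past the rule. The counts are thus no result about short RNA genes. Those with a place in the annotation were between 100 and 275 bases long, with a median of 127, and FPKM divides by this length. The largest was *Mir744*, a microRNA gene in an intron of the kinase gene *Map2k4*, at 3541 FPKM in WT cortex and listed at 0 in *Snord116del* and in both groups at Zt +6. *Map2k4* itself was at 5.92 and 8.10. Its sequences, from RefSeq on GRCm38.p6, are shown because this gene had the largest drop in FPKM from WT to *Snord116del* in the table. In the hairpin, capitals mark the mature arms, and in each mature form they mark the seed, bases 2 to 8.
Mir744 hairpin, chr11:65734733-65734832, minus strand: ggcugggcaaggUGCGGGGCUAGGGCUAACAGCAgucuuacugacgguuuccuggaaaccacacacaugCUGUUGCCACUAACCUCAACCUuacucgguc
mmu-miR-744-5p: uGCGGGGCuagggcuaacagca
mmu-miR-744-3p: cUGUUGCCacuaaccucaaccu
The mature forms of 22 bases differ in their seeds. An FPKM for the gene of 100 bases counts fragments placed on this hairpin and is no measure of either mature form.

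*Snora30* was listed at 0 in WT and at 276 in *Snord116del*, *Mir1966* at 0 and 68.2 and *Scarna3a* at 0 and 39.8. In the other direction *Snora28* was at 28.4 and listed at 0, and *Snora65* at 25.9 and listed at 0. Their hosts on the same strand were *Eif5* (4.88 and 6.47), *Rpl12* (243 and 363), *Fam65a* (28.0 and 39.0, for *Mir1966*) and *Rfwd2* (2.46 and 3.33, for *Scarna3a*), which did not share the gap. At Zt +6 *Mir1966* was listed at 0 in WT and at 502 in *Snord116del*, and *Snora30* and *Scarna3a* at 0 in both groups. *Mir703* was at 985 and 2582 at Zt +16, and *Rn4.5s* at 187 and 526. An exact 0 for a gene this short can be a value that could not be estimated, so no ratio is given against it.

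The Zt +6 comparison of 2 *Snord116del* with 3 WT mice shares no sample with that at Zt +16. There 5073 genes (49.3%) were higher by the same rule and 785 (7.62%) lower. At that time *Ndn* was at 12.7 in WT and 24.9 in *Snord116del*, and *Ipw* at 21.6 and 3.40, the same order as at Zt +16 for each, while *Apoc1* was at 3.72 and 2.23, *Nrtn* at 2.98 and 1.79 and *Gp1bb* at 188 and 28.0, the opposite order. *Snurf*, low in *Snord116del* at Zt +16, was at 18.9 and 29.1 at Zt +6. None of these differences between the times was tested.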

How the data were processed

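Cortical RNA-seq of WT and *Snord116del* mice at Zt +16 (2 mice per group) was analysed from a table with 1 value per group and gene. Libraries were made with a kit for total RNA, and the authors aligned the reads with TopHat2 2.0.5 to mm9 and computed FPKM with Cuffdiff 2.0.2, pooling the mice of a group. The deposited values are thus FPKM, the authors' group values, with no counts, depth or spread between mice. Columns with the authors' fold changes, q-values and significance calls were not used. The limma design written for values per mouse could not be used, and the fold rule written for group values took its place: FPKM + 1 at least 1.5-fold apart and at least 1 FPKM in the higher group. Only genes whose mean over the 4 RNA-seq groups reached 1 FPKM entered.

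For the other scales, each group was multiplied so that its total, or its median over the genes compared, met the geometric mean of both groups. Genes were matched by symbol to GENCODE vM1 on NCBIM37, the assembly of mm9: 21853 of 23235 matched, and length was known for 98.7% and GC content for 96.6% of those compared. ChIRP peaks came from the deposited peak positions, called with MACS 1.4.2 in each library. Promoter and microRNA sequences are RefSeq's.

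The members and gene lists were chosen with earlier results of these data known, and 4 lists and the removal of the trend on level, length and GC content were added after the values were seen. Genes named were the members of the Prader-Willi list, of which some are not reported here, and of the list of genes the study measured by qPCR, up to 2 at each end of every other list, the 10 largest changes in each direction (at least 1 FPKM in both groups, no short RNA genes) as deposited and at the same median, the 10 largest differences in FPKM in each direction, and 3 short RNA genes in each direction. *Akr1b3*, *Gm12238*, *Rpl34-ps1*, *Rn4.5s*, *Rbbp5*, *Atp6v0c*, the host genes of short RNAs, some further list members (such as *Arc*, *Egr1*, *Nr4a1*, *Tsc2*, *Eif4ebp1*, *Tyrobp*, *Adora2a* and *Hbb-b2*) and members of the added lists were named after their values were seen. Tested on simulated data for this comparison, the fold rule recovered 200 of 200 genes changed 3-fold among 10297 on each of the 3 scales. The changed genes were drawn from those well above the filter. The simulated shift between groups and spread between genes were smaller than in the data. Full recovery thus checks how the rule was coded and gives no error rate for these data. Alternatives covered the scale, the pseudocount, the filter, the fold and short RNA genes. The software was matplotlib 3.10.9, scipy 1.17.1, pandas 2.3.3 and numpy 2.4.6 under Python 3.11.15.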

Additional observations from a re-analysis of the deposited data

How the results depend on the processing

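No paired analysis was possible because the table holds 1 value per group and none per mouse, and for the same reason no mouse could be left out. The counts depended on the scale, on the fold limit and on the trend, and the median on the scale, the pseudocount and the filter. The genes higher and lower, the share of genes past the rule that were higher, and the median log2 change were 1959, 21, 98.9% and 0.35 as deposited. They were 34, 121, 21.9% and −0.12 at the same total, 120, 51, 70.2% and 0.012 at the same median, and 64, 69, 48.1% and −0.046 at the same upper quartile. They were 52, 87, 37.4% and −0.076 at the same total without the 100 most abundant genes of either group, 31, 146, 17.5% and −0.13 at the same total without short RNA genes, and 67, 68, 49.6% and −0.0032 after quantile normalization. With a pseudocount of 0.1, 3115 genes were higher and the median was 0.46, and with 5, 862 were higher (98.1%) and the median was 0.18. The median was 0.10 with no filter on the mean, 0.49 with a mean of at least 5 FPKM, where 10 genes were lower and 99.4% higher, and 0.39 with the filter on the Zt +16 groups alone. With a 2-fold limit 126 genes were higher (88.1%), and without short RNA genes 13 were lower. With the trend on level, length and GC content removed, an alternative chosen after seeing the data, 21 were higher, 55 lower and 27.6% higher. No median is given for it, since removing the trend centres the changes. Of 162 named genes compared, 128 were above WT as deposited, and of these 44 were below WT at the same median and 57 at the same total, among them *Mtor* (−0.15), *Cry1* (−0.19), *Cry2* (−0.13), *Clock* (−0.21) and *Cx3cr1* (−0.12) at the same total. Of those past the fold rule as deposited, 2 changed sign: *Apod* went to −0.011 at the same total and −0.029 at the same total without short RNA genes, and *Hspb1* to −0.0014 with the trend removed. List medians of ribosomal protein, respiratory chain, microglial, striatal and hippocampal genes were above 0 in all 10 settings, and that of immediate early genes in 3. The cause of the dependence on scale was not tested. The unknown spread between mice limits every value.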

Other observations

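On the scale with the same median, genes other than those described above were also lower in *Snord116del*. Replication-dependent histone genes, whose transcripts mostly lack a poly(A) tail, were at 14.8 and 10.3 FPKM for *Hist2h4*, 2.07 and 1.26 for *Hist1h3h* and 3.54 and 2.56 for *Hist1h2bm*, while *Hist1h2bg* (1.48 and 3.81) and *Hist1h4i* (1.38 and 3.44) were higher, so the class was mixed. *Jund*, an AP-1 factor gene, was at 28.5 and 21.6, *Nptx2*, which encodes an activity-regulated synaptic pentraxin, at 33.1 and 29.0, and the MHC class I gene *H2-Q4* at 21.8 and 16.3. *Npcd* was at 72.6 and 60.3. On the higher side *Cyp46a1*, the cholesterol hydroxylase of neurons, was at 35.2 and 83.1, *Gpx4*, which protects lipids from oxidation, at 49.3 and 116, *Ptgds*, the prostaglandin D synthase of brain, at 1097 and 2377 and *Ache*, which encodes acetylcholinesterase, at 11.0 and 23.9. These 6 genes on the higher side, the 2 histone genes included, did not pass the rule at the same total or with the trend removed. All of these genes were picked after their values were seen.

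Over all genes compared, 19.0% were higher as deposited and the median change was 0.35. Heat shock chaperone genes had 2 of 18 higher (11.1%) and a median change of 0.36, close to that of the table. *Dnajb1* was at 23.3 and 44.1, and the endoplasmic reticulum chaperones *Hspa5* at 25.5 and 26.8 and *Hsp90b1* at 23.1 and 22.1. Hosts of snoRNAs and nuclear long non-coding RNAs had 6 of 19 higher (31.6%) and a median of 0.43, with *Snhg9* at 1108 and 2198 and *Mirg* at 1.03 and 1.19. *Atp6v0c*, a proton pump subunit gene, was listed at 0 in WT and at 0.486 in *Snord116del* at Zt +16, but at 60.5 and 315 at Zt +6.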
